A study of Mus musculus with 12 samples.

Results

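The difference between the response of bone marrow and the response of lung to leukaemia was measured gene by gene. The RNA came from sorted cells that the labels call endothelial. The measure was the AML effect in marrow (marrow AML minus marrow control, on the log2 scale) minus the AML effect in lung (lung AML minus lung control). It drew on 12 of the 12 libraries of the series, 3 in each of 4 groups, and on the 18147 of 55291 genes with enough counts to be tested. A positive difference means that the AML effect was higher in marrow than in lung, and the same number is the marrow to lung gap in AML mice minus that gap in controls.

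All mice were of the VECadCre-tdTomato line, in which a VE-cadherin promoter drives the Cre recombinase and Cre turns on a red fluorescent reporter. Because the reporter is switched on by recombination, it marks the descendants of any cell in which the promoter was once active as well as endothelium. The labels give the sample of all 4 groups as Vecad+ endothelial cells. The marrow AML and lung AML groups came from mice transplanted with acute myeloid leukaemia (AML) cells that carry a mutant and a deleted allele of Trp53, and the marrow control and lung control groups came from mice given no transplant. Transplantation and leukaemia therefore cannot be told apart. The labels do not say whether replicates of a group are separate mice, nor whether a marrow and a lung library share a mouse, so p-values measure the spread between these libraries, which may be technical.

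Total counts were between 12.8 and 39.2 M per library. The labelled cell type was checked against 20 pan-endothelial markers, which together took 0.0273% ± 0.00405 (SD, n = 3) of counts in marrow controls, 0.026% ± 0.00417 in marrow AML, 0.551% ± 0.364 in lung controls and 0.0671% ± 0.0367 in lung AML. Cdh5, which encodes VE-cadherin itself, stood at 3.54, 6.53 and 4.67 CPM (counts scaled by library size and TMM factor) in marrow controls 1, 2 and 3, at 0.388, 0.955 and 0.558 in marrow AML, at 75.4, 348 and 140.3 in lung controls and at 3.9, 31.8 and 12.1 in lung AML. The marrow libraries held little of the transcript that defines the label. Transcripts of other cells were prominent: markers of alveolar type 2 epithelium, the surfactant-making cells of the lung, took 18.6% ± 1.9 of the lung control total and 22.5% ± 0.995 of the lung AML total, and erythroid markers took 2.82% ± 0.105 in marrow controls and 0.363% ± 0.28 in marrow AML. Monocyte and macrophage markers took 2.95% ± 0.255 of lung control counts and 2.87% ± 0.283 of lung AML counts. Fewer cells of a type and less RNA per cell cannot be told apart in such bulk libraries.

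Vessels of the bone marrow feed and hold blood-forming cells through secreted and membrane-bound factors such as stem cell factor and Cxcl12, and leukaemia grows within that vascular niche. Lung capillaries serve gas exchange and meet leukaemic cells mainly from the blood. Endothelial identity along arteries, capillaries and veins is set in part by Notch signalling, while pericytes and basement membrane surround the endothelial tube.

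The AML effects of marrow and lung differed at 5567 of 18147 genes, which is 30.7% of all genes tested (edgeR's quasi-likelihood test, Benjamini-Hochberg adjusted p under 0.05). At 2642 genes (14.6%) the effect was higher in marrow and at 2925 (16.1%) it was lower. Both directions were about equally common, and the median difference over all genes was -0.09. The difference exceeded 4-fold at 3038 of the called genes. In 448 of the called genes at least 1 group held 3 or fewer counts, and 4941 had 10 or more counts in each of the 4 groups. The split depended on scaling: with library totals alone, 3494 genes were called higher and 1756 lower, and the median of all genes moved to 0.30.

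Most of the called differences came with a large effect in marrow. The marrow effect was called at 7957 genes (43.8% of all genes tested), 20.4% upward and 23.5% downward, and the lung effect at 423 (2.33%), 1.17% upward and 1.16% downward. Over all genes tested the median size of the effect, without its sign, was 1.08 on the log2 scale in marrow and 0.37 in lung, with median standard errors of 0.46 and 0.455. Both effects were judged against a spread shared by all 4 groups. Their alike standard errors therefore do not show that the libraries of the 2 tissues varied equally. Among the 5567 called genes, 4914 (88.3%) had a called effect in marrow alone, 2258 upward and 2656 downward, and in lung alone 44 had a called effect upward and 54 downward. For another 215 genes higher and 161 lower in marrow, the difference passed while neither tissue's own effect did. In all, 293 genes were called in both tissues, 146 with the same sign and 147 with opposite signs. Across all genes the marrow and lung effects, which share no library, had a Pearson correlation of 0.12 and a Spearman correlation of 0.0161, a description over genes that are not independent replicates. The count of lung calls depended on the test and on single libraries, and a small count is not an absence of change in lung. A fit of the 6 lung libraries alone called 1225 lung effects, DESeq2's Wald test 1643 and limma-voom 2260. Leaving out lung AML 1, 2 or 3 gave 72, 248 or 83 lung calls, leaving out lung control 1 or 2 gave 218 or 116, and leaving out marrow AML 3 gave 761. The 3 lung AML values lay wholly above or below the 3 lung control values at 6349 genes (35.0% of all tested), against 8680 (47.8%) in marrow, and the effects of lung were judged against a spread shared by all 4 groups.

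**Figure D1:**
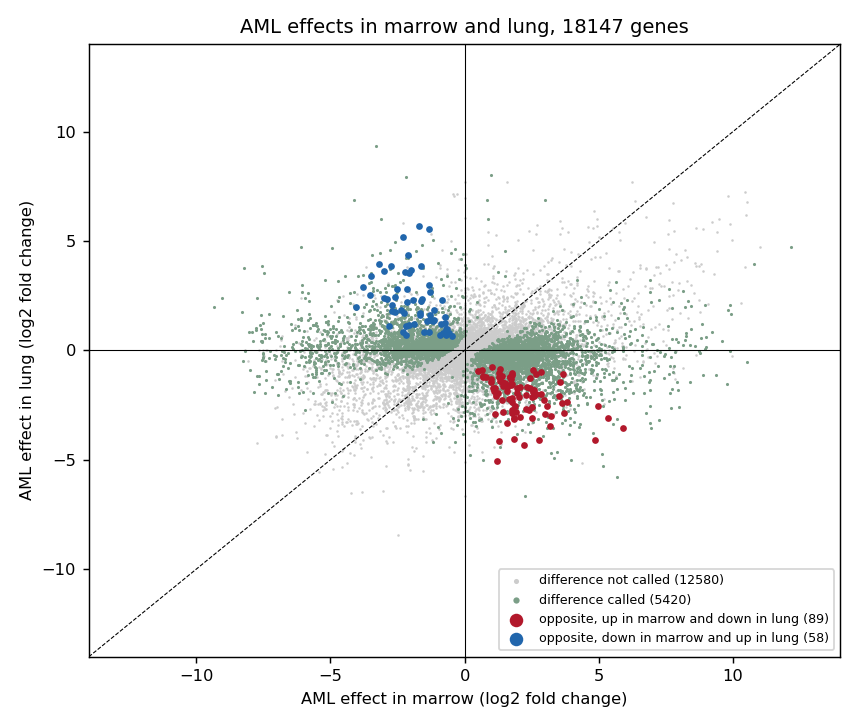
Each point is 1 of the 18147 genes tested, placed by its AML effect in marrow (x axis, log2 fold change) and in lung (y axis, log2 fold change). Green marks genes called in the difference, red and blue those with opposite effects called in both tissues, and the dashed line equal effects. Points spread far along the marrow axis and little along the lung axis, with median sizes of 1.08 and 0.37.

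The same contrast can be read as a change in how far the tissues stood apart. In controls the median size of the marrow to lung gap was 1.69 on the log2 scale over all genes, and in AML mice it was 1.07. The gap was smaller in AML mice at 65.1% of all genes tested and at 4191 (75.3%) of the 5567 called genes, where its median size was 2.06 in controls and 0.948 in AML mice. Among the called genes 555 had a gap called in both conditions with opposite signs. The median gap was larger in controls in each of the 19 settings for which it was computed, from 1.5 to 1.84 in controls and from 0.908 to 1.47 in AML mice.

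Limd2, which encodes a small LIM domain protein (chr11:106156256-106160860, GRCm38), had the smallest p of all. It stood at 7.07, 7.84 and 6.35 CPM in marrow controls, at 128, 131 and 114 in marrow AML, at 127, 124 and 141 in lung controls and at 142, 134 and 153 in lung AML. Marrow controls alone were low, and marrow AML came near the level of the lung. The AML effects differed by 4.0 ± 0.20 (log2 ± SE, adjusted p = 5.09e-06). P2rx4, an ATP-gated ion channel (chr5:122707544-122729738), stood at 14.8, 13.7 and 15.8 CPM in marrow controls, 75.0, 90.0 and 79.1 in marrow AML, 163, 150.3 and 153 in lung controls and 124, 133 and 118 in lung AML. Its difference was 2.77 ± 0.19 (adjusted p = 5.25e-05), and the lung groups, though they did not overlap, did not pass the lung test (log2 -0.31, adjusted p = 0.25). Trim35, a tripartite motif protein, had the same shape, with 22.5 to 30 CPM in marrow controls, 145 to 175 in marrow AML and 103 to 201 across the lung libraries, and a difference of 3.16 ± 0.24.

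In the other direction Tmem8 (chr17:26113299-26123254) stood at 133, 151 and 89.0 CPM in marrow controls and at 7.83, 6.19 and 7.89 in marrow AML, while the 6 lung libraries lay between 83.2 and 113. Marrow AML alone was low, with overlapping lung groups, and the difference was -4.26 ± 0.30 (adjusted p = 5.25e-05). Wdhd1, a protein of the DNA replication fork (chr14:47240944-47276857), fell in marrow from 393, 374 and 299 CPM to 45.2, 31.0 and 23.9, while the lung libraries held 3.87 to 4.07 in controls and 6.53 to 7.85 with AML. The lung change was upward by estimate and did not pass (log2 0.81, adjusted p = 0.0879), and the difference was -4.22 ± 0.32. Mier3 (-3.34 ± 0.25), Rfwd3, a ubiquitin ligase of DNA repair (-2.84 ± 0.22), and Ogfrl1 (-3.17 ± 0.25) had lower marrow AML than marrow control values and higher lung AML than lung control values, with no overlap in either tissue and only the marrow effect called.

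Effects of opposite sign that passed in both tissues were found at 147 genes, 89 that rose in marrow and fell in lung and 58 that fell in marrow and rose in lung. Up in marrow and down in lung, the median marrow effect was 1.84 and the median lung effect -1.97, and in the opposite class the medians were -1.91 and 1.83. The marrow and lung parts of the difference were of like size in these genes, which the choice of genes in part fixes. Membership rested on single libraries. Without lung AML 1, 2 or 3 the first class held 11, 46 or 10 genes, of which 11, 39 or 10 were among the 89, and the second held 17, 51 or 17, of which 16, 37 or 17 were among the 58. Without lung control 1, 2 or 3 the first class held 65, 31 or 66 genes, 62, 28 or 57 of them shared, and the second 15, 15 or 33, with 15, 14 or 27 shared. Without marrow control 1 or 2 the second class held 38 or 34 genes, and without marrow AML 3 the classes held 136 and 98.

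Plekha2, a phosphoinositide-binding adaptor (chr8:25039144-25102376), had the smallest p of the genes that rose in marrow and fell in lung. It stood at 6.47, 6.33 and 5.09 CPM in marrow controls, 59.0, 79.2 and 86.9 in marrow AML, 64.4, 98.1 and 68.3 in lung controls and 38.1, 41.5 and 30.4 in lung AML. The marrow rise of 3.65 ± 0.25 and the lung fall of -1.07 ± 0.22 gave a difference of 4.72 ± 0.33 (adjusted p = 5.25e-05). Ddah2, which degrades an inhibitor of nitric oxide synthesis (chr17:35059035-35062095), went from 20.8, 17.6 and 14.5 CPM to 114, 95.0 and 123 in marrow, and from 101, 133 and 96.9 to 55.2, 49.2 and 51.8 in lung, a difference of 3.74 ± 0.26. Sh3bgrl3 (3.45 ± 0.26) and Maoa, the mitochondrial amine oxidase (3.85 ± 0.32), followed the same pattern with no overlap in either tissue. In all 4 genes marrow controls were the lowest group, and apart from 1 library of Maoa the marrow AML values lay within the range spanned by the lung libraries.

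Tfdp2, the dimerisation partner of E2F transcription factors (chr9:96196275-96323646), led the opposite class. It went from 235, 227 and 206 CPM to 53, 41.7 and 51.0 in marrow, and from 39, 44.4 and 34 to 65.6, 62.2 and 60.3 in lung. Here marrow controls were the highest group and marrow AML came close to the lung. The difference was -2.88 ± 0.21 (adjusted p = 5.25e-05). Mcm7, a subunit of the replicative helicase (chr5:138164583-138172422), fell in marrow from 1337, 1409.9 and 1081 CPM to 236, 149.6 and 151 and rose in lung from 28.1, 30 and 29.3 to 77.5, 58.8 and 53.1, a difference of -3.95 ± 0.31. Gypc, a red cell membrane glycoprotein (-3.22 ± 0.26), and Eci2, an enzyme of fatty acid oxidation (-2.33 ± 0.20), completed the 4 with the smallest p.

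**Figure D2:**
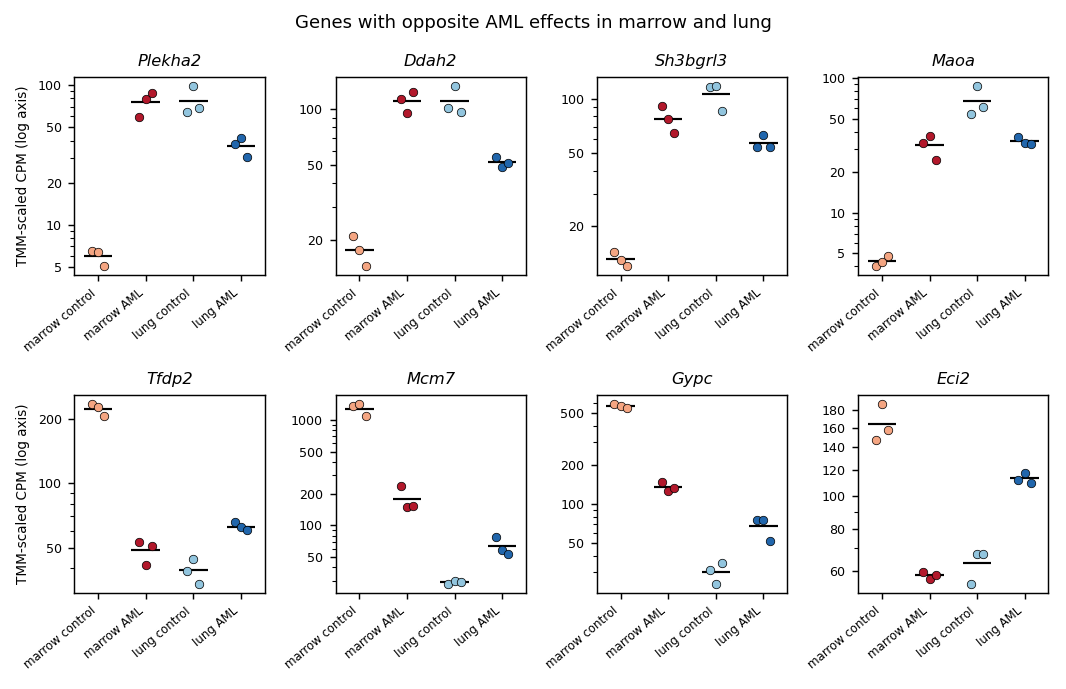
TMM-scaled CPM (log axis) in each of the 12 libraries for the 8 genes with the smallest p among those with opposite effects; points are libraries and bars group means. In the top row marrow rose while lung fell, in the bottom row marrow fell while lung rose, and the AML and control points do not overlap in either tissue.

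Factors by which vessels and stroma support blood-forming cells were among the genes with opposite effects. Of 26 niche factor genes tested, 12 had a higher effect in marrow and 0 a lower one (46.2% called, against 30.7% of all genes), with a median difference of 2.17 beside -0.09 for all genes. Kitl, which encodes stem cell factor (chr10:100015630-100100416), stood at 30, 18.8 and 18.0 CPM in marrow controls, 100.4, 138 and 95.6 in marrow AML, 33.9, 88.4 and 63.5 in lung controls and 17.9, 21.4 and 19.3 in lung AML. It rose in marrow by 2.32 ± 0.33 and changed by -1.67 ± 0.33 in lung, a difference of 3.99 ± 0.47 (adjusted p = 0.000239). Cxcl12, the chemokine that retains stem cells in marrow, went from 1971, 1747 and 1392 CPM to 3241, 4258 and 2651 in marrow and from 209.5, 152 and 200 to 97.9, 65.4 and 42.4 in lung. The groups did not overlap in either tissue, and the difference was 2.44 ± 0.42 (adjusted p = 0.00179). Vcam1, an adhesion receptor for leukocytes (2.32 ± 0.31), and Csf1, the macrophage growth factor (3.05 ± 0.43), also rose in marrow and fell in lung. With Kitl and Cxcl12 they made 4 such genes of the 26. The adjusted p of the lung effect (edgeR's test) was 0.0267 for Kitl, 0.0327 for Cxcl12, 0.0325 for Vcam1 and 0.0476 for Csf1. Angpt2, a ligand that destabilises vessels, rose in marrow from 14.5, 3.77 and 8.93 CPM to 113, 162 and 189 and stood at 59.5, 52.6 and 71.8 in lung controls and 38.9, 29.1 and 23.0 in lung AML. Its lung effect did not pass (log2 -1.01, adjusted p = 0.216), and the difference was 5.11 ± 0.58 (adjusted p = 0.000224). Kit, the receptor of stem cell factor, also went opposite ways, with a difference of 4.63 ± 0.87 (adjusted p = 0.0027). One lung control library, number 2, held 583 CPM of Kit against 141 and 162 in the others. Marrow stromal and osteolineage markers, a list that holds Cxcl12, took 2.43% of marrow control and 2.33% of marrow AML counts. The part of stromal cells in the differences of these niche factors was not tested.

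Notch and arterial genes gave some of the widest differences. Hey1, a transcriptional repressor induced by Notch (chr3:8663359-8667256), stood at 3.63, 4.52 and 3.23 CPM in marrow controls, 16.7, 14.4 and 9.88 in marrow AML, 45.9, 141 and 41.9 in lung controls and 4.97, 5.05 and 3.79 in lung AML. Lung controls were high and the lung AML libraries fell to the level of marrow controls, and the difference was 5.89 ± 0.65 (adjusted p = 0.000201). Gja4, a gap junction protein of arteries, rose from 9.03, 4.17 and 8.27 CPM to 104, 65.4 and 130.3 in marrow and fell from 65.6, 124 and 57.9 to 17.9, 20.5 and 10 in lung, a difference of 6.16 ± 0.61. Mgp, a matrix protein that limits calcification, differed by 5.75 ± 0.51 through marrow alone, where it rose by 5.37 ± 0.40. Of 12 arterial genes 6 had a higher effect in marrow and 0 a lower one (50% called), and of 19 Notch pathway genes 7 and 2 (47.4%), against 30.7% of all genes. Only 1 Notch gene was lower in 9 of the 12 fits that leave out 1 library. Heyl, another Notch target, differed by 4.25 ± 0.52. Pericyte markers took 0.0573% of counts in marrow controls and 0.935% in marrow AML, and their part in these differences was not tested. The pathway did not move as one: Dll4, an arterial Notch ligand, was lower in AML in both tissues (log2 -4.07 in marrow and -4.02 in lung, both called) and gave a difference of -0.05 ± 0.69 (adjusted p = 0.982), where the interval is wide. Dll4 was chosen after its values were seen.

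Of the 20 pan-endothelial genes 4 had a higher effect in marrow and 0 a lower one, 20% called against 30.7% of all genes. In marrow 9 of the 20 fell and 1 rose (median effect -1.82), where 23.5% and 20.4% of all genes did. Cdh5 had a marrow effect of -2.90 ± 0.82 (adjusted p = 0.0141). The 4 became 2 without marrow control 1 or 3, lung control 2, or lung AML 1 or 3. The effects of Cdh5 (difference 0.66 ± 1.07, adjusted p = 0.686) and Pecam1, an endothelial junction protein (1.32 ± 1.09, adjusted p = 0.396), did not differ between the tissues beyond their error. In lung 10 of the 20 fell, where 1.16% of all genes did. The share of counts taken by the 20 genes went from 0.551% to 0.0671% in lung while it was 0.0273% and 0.026% in marrow. Lung control 2 held the highest share (0.968%) and lung AML 1 the lowest lung share (0.0375%). The lung values of Hey1, Gja4, Kitl, Cxcl12, Vcam1 and Csf1 were lower in AML, as this share was. Among lung controls Hey1, Gja4, Kitl and Csf1 were highest in library 2, while Cxcl12 (152 CPM) and Vcam1 (45.5 CPM) were lowest there. The part of this share in the differences of these genes was not tested.

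Genes for antigen processing included the immunoproteasome. Psmb8, an interferon-inducible catalytic subunit, went from 16.6, 13.5 and 19.3 CPM to 79.2, 107 and 81.7 in marrow and from 85.4, 129.9 and 86.6 to 38.9, 42.8 and 45.6 in lung, a difference of 3.68 ± 0.31 (adjusted p = 7.7e-05). Psmb10, its partner, differed by 2.52 ± 0.29, again with opposite effects. Of 18 antigen presentation genes 9 had a higher effect in marrow and 0 a lower one (50% called, against 30.7% of all genes). The median effect of the 18 genes was 0.05 in marrow and -1.27 in lung. The 9 became 4 without marrow control 3 or lung AML 1 and 5 without marrow control 1, lung control 2 or lung AML 3. Interferon response genes split, 7 higher and 6 lower of 29 (44.8% called). Gbp2 was higher (2.88 ± 0.57) and Irf7, a regulator of type I interferon, lower (-2.09 ± 0.39).

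**Figure D3:**
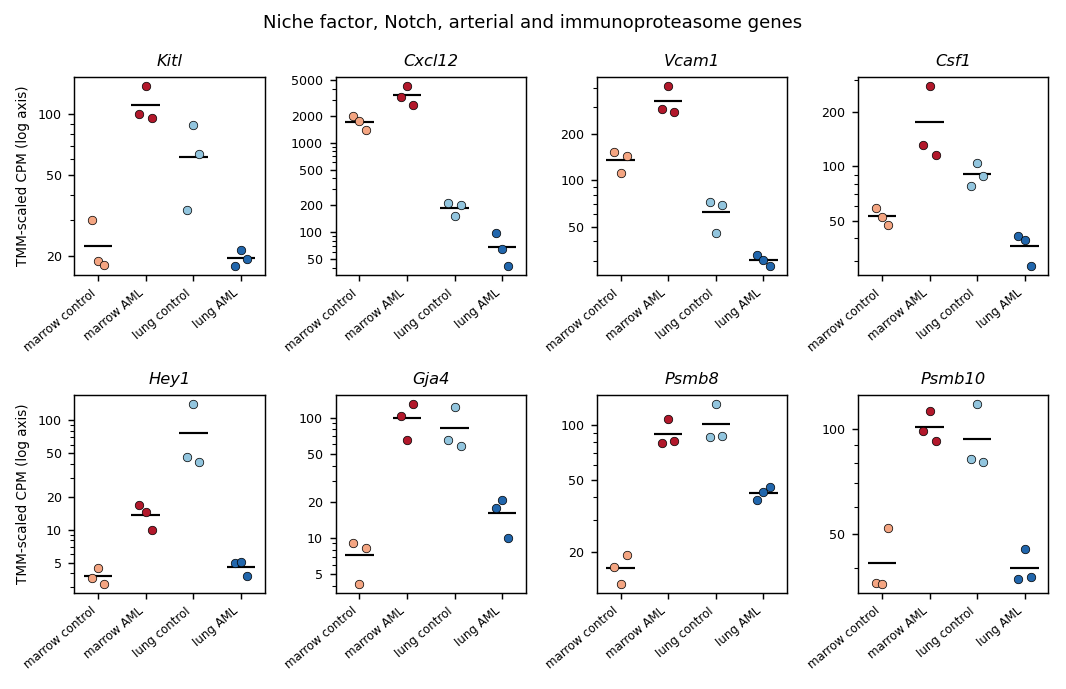
TMM-scaled CPM (log axis) by library for 4 niche factors and adhesion genes, 2 Notch or arterial genes and 2 immunoproteasome genes; points are libraries and bars group means. In all 8 genes marrow AML lies above marrow control and lung AML below lung control without overlap.

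Erythroid genes had lower effects in marrow. Of 16 tested 11 were called (68.8%, against 30.7% of all genes), 0 higher and 11 lower, with a median difference of -4.68. All 16 fell in marrow, where 23.5% of all genes did, and 4 rose in lung, where 1.17% did. To show the sequence upstream of the erythroid and proliferation genes with the smallest p, the 250 bases before the annotated start of Klf1 and Mcm7 are printed from RefSeq (GRCm38.p6), 5′ to 3′ on the gene's strand, with matches in capitals to the GATA motif (the run AGATAA, the run AGATAG, the run TGATAA or the run TGATAG, on either strand) in Klf1 and the E2F motif (TTTCCCGC or TTTGGCGC, either strand) in Mcm7. Klf1 lies on the plus strand at chr8:84901732-84901981 and Mcm7 on the minus strand at chr5:138171884-138172133, 1 of its 2 annotated starts, of which the other had no match in its 250 bases. Gata1 of the erythroid list and Hmgb2 and Bub1b of the proliferation list had no match to the motif of their list in their 250 bases.
Klf1: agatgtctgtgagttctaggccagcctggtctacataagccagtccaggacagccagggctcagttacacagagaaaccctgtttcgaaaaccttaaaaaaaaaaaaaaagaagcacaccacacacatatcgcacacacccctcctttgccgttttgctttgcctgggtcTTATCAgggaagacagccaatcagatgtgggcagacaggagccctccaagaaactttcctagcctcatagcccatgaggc
Mcm7: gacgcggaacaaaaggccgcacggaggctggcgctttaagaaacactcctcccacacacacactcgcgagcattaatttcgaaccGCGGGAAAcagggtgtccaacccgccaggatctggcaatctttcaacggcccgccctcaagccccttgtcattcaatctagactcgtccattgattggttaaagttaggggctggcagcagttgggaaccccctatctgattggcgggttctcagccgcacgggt
Windows of 300 bases around annotated starts were found for 12 of the 16 erythroid genes, and 9 of their 13 windows (69.2%) held the GATA motif, against 29.8% of all 32851 windows. For 29 of the 34 proliferation genes windows were found, and 5 of 30 (16.7%) held the E2F motif, against 1.56% of all windows. A match is a run of letters and not a measured binding site.

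Klf1, the erythroid Krüppel-like factor, stood at 839, 827 and 841 CPM in marrow controls, 171, 111 and 89.8 in marrow AML, 0.783, 0.691 and 0.74 in lung controls and 17.5, 5.35 and 9.7 in lung AML. It fell in marrow by 2.75 on the log2 scale and rose in lung by 3.88, a difference of -6.63 ± 0.56 (adjusted p = 8.14e-05). Gata1, the GATA factor of red cell and platelet precursors, had 446, 438 and 372 CPM in marrow controls, 154, 99.3 and 61.4 in marrow AML, 1.22, 0.845 and 1.26 in lung controls and 22.3, 7.19 and 12.7 in lung AML, a difference of -5.66 ± 0.60. Car1, a carbonic anhydrase of red cell precursors (-5.59 ± 0.66), and Ermap, a red cell membrane protein (-7.17 ± 0.92), likewise fell in marrow and rose in lung. Lung AML 1 was the highest of the lung libraries in all 4 genes, with Klf1 at 17.5 CPM against 5.35 and 9.7.

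The globin genes and Alas2 gave lower lung values in AML by estimate. The median lung effect of the 16 erythroid genes was 0.96, with 4 called up and 0 down. Hbb-bs, an adult beta globin, stood at 143, 113 and 75.9 CPM in lung controls and 9.37, 6.21 and 20.4 in lung AML, and Alas2, the first enzyme of heme synthesis in red cells, at 20.5, 8.34 and 13 against 2.54, 0.728 and 4. These lung values were lower in AML without overlap, yet neither passed the lung test (adjusted p = 0.17 and 0.183). With falls in marrow of -4.10 ± 1.16 and -4.48 ± 0.95, the differences of Hbb-bs (-0.90 ± 1.45) and Alas2 (-1.96 ± 1.22) were not called. Without marrow AML 1, which held the most globin of its group (763 CPM of Hbb-bs against 77.7 and 9.91), both were called, at -3.59 and -3.50 (adjusted p = 0.0199 and 0.0249). Hba-a1, Hba-a2 and Hbb-bt were not called in the difference either; without that library Hba-a1 (-3.72) and Hbb-bt (-4.74) were called as well and Hba-a2 was not. These genes were chosen after their values were seen, and reads of the near-identical globin copies may have been split between them. The erythroid list took 2.82% of marrow control counts and 0.363% of marrow AML counts. In lung it took 0.0523% and 0.0433%, so its summed share was not higher in lung AML. The red cell genes named for the lung alone, Rhag and Tfr2, followed Klf1. Rhag, an ammonium channel of the red cell membrane, rose in lung from 1, 1.46 and 1.15 CPM to 77.0, 16.5 and 26.0 (log2 5.04 ± 0.57), stood at 846 to 1008 in marrow controls and 265 to 546 in marrow AML, where the effect did not pass (adjusted p = 0.0621), and differed by -6.21 ± 0.73. Tfr2, an iron sensor of red cell precursors and liver, differed by -5.01 ± 0.71.

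Cell proliferation was the list with the largest share called. Of 34 genes 33 (97.1%, against 30.7% of all genes) had a lower effect in marrow. All 34 fell in marrow, where 23.5% of all genes did, and 2 rose in lung, where 1.17% did. The median effect was -2.73 in marrow and 0.96 in lung, and the median difference -3.68. Besides Mcm7, Hmgb2, a chromatin protein of dividing cells, went from 1678, 1861 and 1962 CPM to 444, 296 and 271 in marrow and from 38.2, 37.8 and 35.6 to 85.2, 55.2 and 65.3 in lung, a difference of -3.33 ± 0.31. Bub1b, a mitotic checkpoint kinase, differed by -2.99 ± 0.33. Its lung groups, like those of Hmgb2, did not overlap and missed the threshold (adjusted p = 0.0543 and 0.0594). Ccnb1, the mitotic cyclin B1, passed in both tissues with opposite signs and differed by -5.39 ± 0.71. The erythroid share was lower in marrow AML than in marrow controls, as these genes were, and its part in their fall was not tested.

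**Figure D4:**
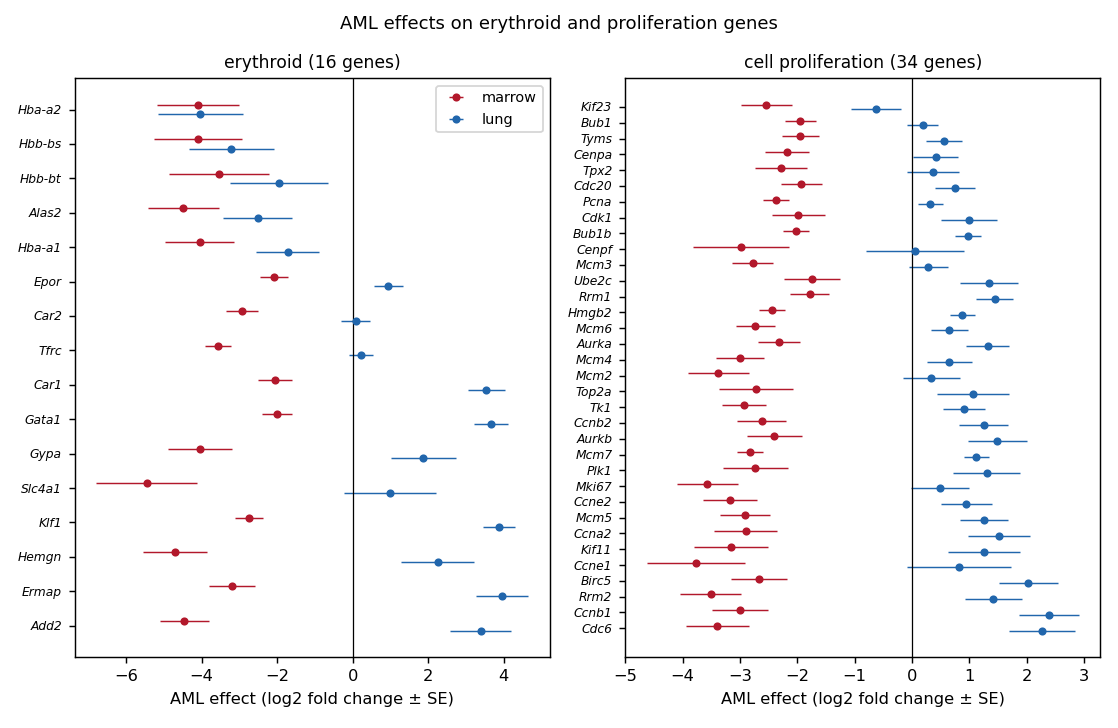
AML effects (x axis, log2 fold change) in marrow (red) and lung (blue) for the 16 erythroid and 34 proliferation genes (y axis); points are fitted values and bars their standard errors. All marrow effects lie below 0, while the lung effects of the globin genes and Alas2 lie below 0 and those of Klf1, Gata1, Car1 and Ermap above it.

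Pericyte and smooth muscle genes had higher effects in marrow, with 12 of 14 called (85.7%, against 30.7% of all genes) and 0 lower. Their median difference was 4.64. Tagln, an actin-binding protein of smooth muscle, stood at 9.96, 2.51 and 4.55 CPM in marrow controls, 101, 49.5 and 230.5 in marrow AML, 35.3, 12.1 and 16.5 in lung controls and 10.9, 9.07 and 5.54 in lung AML. The lung values were lower in AML without overlap and did not pass (adjusted p = 0.326), and the difference was 5.80 ± 0.93. Mcam, an adhesion protein of pericytes and endothelium (5.71 ± 0.73), and Notch3, the Notch receptor of mural cells (4.91 ± 0.68), differed in the same direction. Rgs5, a pericyte regulator of G protein signalling, held 242 to 512 CPM in marrow AML against 11.1 to 57.8 in marrow controls and 2.62 to 6.3 across the lung libraries. The 14 genes together took 0.0573% ± 0.0364 of marrow control counts and 0.935% ± 0.628 of marrow AML counts, with 1.64% in marrow AML 3. In lung they took 0.182% ± 0.0762 and 0.0953% ± 0.0213.

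Genes of the matrix and of TGF-beta signalling, which mural cells also express, followed. Of 31 basement membrane and matrix genes 15 were higher and 1 lower (51.6% called), and of 27 TGF-beta response genes 18 were higher and 0 lower (66.7%). Among all genes 30.7% were called. Col18a1, a basement membrane collagen, stood at 28.1, 12.4 and 19.6 CPM in marrow controls, 250, 109 and 305 in marrow AML, 113, 71.2 and 77.9 in lung controls and 36.5, 39.9 and 41.2 in lung AML, a difference of 4.63 ± 0.54. Lama5, a laminin chain of vessel walls (4.59 ± 0.44), and Timp1, an inhibitor of matrix metalloproteinases (3.79 ± 0.59), rose in marrow and did not pass in lung. Id2, a target of BMP and TGF-beta (2.90 ± 0.29), and Vim, an intermediate filament of mesenchymal and endothelial cells (4.29 ± 0.54), likewise passed in marrow alone, whereas Smad6, an inhibitor of BMP signalling, rose in marrow and fell in lung (4.01 ± 0.46). The pericyte share moved with these lists in marrow, and its part in them was not tested.

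Lox, a collagen-crosslinking oxidase, was the exception in the matrix list. It rose in both tissues, from 165, 111 and 191 CPM to 317, 626 and 386 in marrow and from 16.7, 9.95 and 28.8 to 313, 552 and 424 in lung. The AML groups reached the same range from unequal starting points, and the difference was -3.03 ± 0.56 (adjusted p = 0.00237). Gdpd2, a phosphodiesterase, also rose more in lung (-1.88 ± 0.45), a call that limma-voom did not make (-1.63, adjusted p = 0.0509). Rises larger in marrow were found at 23 genes, led by Bnip3, a mitophagy receptor induced by hypoxia (2.47 ± 0.38), and Ifngr1, the ligand-binding chain of the interferon gamma receptor (1.54 ± 0.26). Ifngr1 went from 88.8, 65.4 and 80.1 CPM to 589.6, 569 and 451 in marrow and from 219, 267 and 245 to 547, 692 and 482 in lung, so the AML groups again met. Falls of unequal size were few, 3 larger in marrow, among them Cdr2 (-1.08 ± 0.34) and Eid1 (-0.64 ± 0.21), and 3 larger in lung, among them Tspan13 (1.82 ± 0.43) and Arl2bp (0.73 ± 0.23). Of the 12 fits that leave out 1 library, 9 lost the call of Cdr2, 10 that of Eid1 and 7 that of Arl2bp.

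Lung effects that passed alone included falls of Pltp, which transfers phospholipids between lipoproteins, from 566, 1289 and 459 CPM to 78.6, 100.1 and 57.6 (difference 3.62 ± 0.51), and of Prickle1, a planar polarity protein (2.97 ± 0.53). The marrow groups of both overlapped. Tgtp2, an interferon-inducible GTPase, also fell in lung alone (2.89 ± 0.51), and it has a near-identical neighbour with which it may share reads. Rgcc, a regulator of the cell cycle, rose in lung from 204, 181 and 325 CPM to 1135, 1629.7 and 1223 and overlapped in marrow, a difference of -3.01 ± 0.40.

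Glycolysis and hypoxia genes had higher effects in marrow at 17 of 34 and lower ones at 2 (55.9% called, against 30.7% of all genes). Their median effect was 1.68 in marrow and 0.19 in lung. The core of the hypoxia response element (ACGTG, either strand) was present in 24 of the 44 windows found for 31 of these genes (54.5%), against 19.6% of all windows. The 250 bases before a start of Pkm (plus strand, chr9:59656977-59657226, 1 of 2 annotated starts, the other with no match in its 250 bases) and of Pgam1 (plus strand, chr19:41911621-41911870), the pair of this list with the smallest p, show the match in capitals.
Pkm: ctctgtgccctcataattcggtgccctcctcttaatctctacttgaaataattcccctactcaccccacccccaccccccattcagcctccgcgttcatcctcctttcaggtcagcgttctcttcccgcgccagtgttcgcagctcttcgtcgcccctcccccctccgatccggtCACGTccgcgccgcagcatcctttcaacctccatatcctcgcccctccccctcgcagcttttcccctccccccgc
Pgam1: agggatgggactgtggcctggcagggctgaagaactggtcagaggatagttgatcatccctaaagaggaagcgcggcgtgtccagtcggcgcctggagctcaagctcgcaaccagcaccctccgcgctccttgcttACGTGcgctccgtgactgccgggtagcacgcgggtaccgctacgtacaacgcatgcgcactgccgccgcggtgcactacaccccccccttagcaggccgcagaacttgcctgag
Pkm, the pyruvate kinase of glycolysis, rose in marrow from 78.6, 49.2 and 76.9 CPM to 729, 681 and 679 and stood at 415, 333 and 430.4 in lung controls and 524, 475 and 461 in lung AML, a difference of 3.04 ± 0.27 (adjusted p = 0.000106). Pgam1, phosphoglycerate mutase, went from 6.28, 6.53 and 6.05 CPM to 41.9, 38.5 and 40.4 in marrow, with a difference of 3.03 ± 0.28, and Aldoa, an aldolase, differed by 2.23 ± 0.25. None of the 3 passed in lung. In all 3 genes the marrow controls were the low group and marrow AML stood above the lung controls.

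Of 27 early response genes 16 had a higher effect in marrow and 1 a lower one (63.0% called). Fos, a subunit of the AP-1 factor, rose in marrow from 934, 575 and 1111 CPM to 5059.9, 6183 and 6620 and stood at 1745, 1095 and 1782 in lung controls and 2185, 2534 and 2285 in lung AML. The lung groups did not overlap but missed the threshold (adjusted p = 0.288), and the difference was 2.17 ± 0.38. Klf6 (2.32 ± 0.37) and Dusp5, a phosphatase that restrains ERK signalling (3.61 ± 0.38), passed in marrow alone. Of 27 inflammatory and adhesion genes 13 were higher and 1 lower (51.9% called, against 30.7% of all genes), with Nfkbie, an inhibitor of NF-kappaB, at 3.09 ± 0.38.

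Of 17 glucocorticoid response genes 14 rose in marrow and 6 in lung, where 20.4% and 1.17% of all genes did. The effect was higher in marrow at 9 and lower at 0 (52.9% called, against 30.7% of all genes). Without marrow control 2, lung AML 1 or lung AML 3 the 9 became 4, 5 or 4. Tsc22d3, a classic steroid target, went from 145, 87.9 and 148 CPM to 1049, 1569 and 1865 in marrow and from 364, 298 and 593 to 1844, 2045 and 1198 in lung. Both tissues rose, and the difference was 1.54 ± 0.46 (adjusted p = 0.0276), a call lost without marrow control 2, marrow AML 3, lung control 3, lung AML 1 or lung AML 3 (1.2 to 1.6, adjusted p = 0.0509 to 0.0711). Klf9 also rose in both (1.40 ± 0.31), while Sgk1, a kinase induced by steroids, rose in marrow and had a lung effect of -0.07 ± 0.29 that did not pass (difference 3.18 ± 0.42). For Fkbp5, a chaperone of the steroid receptor, the larger rise was in lung by estimate (3.09 ± 0.36 against 2.13 ± 0.35), and that difference did not pass (-0.95 ± 0.48, adjusted p = 0.158) except without marrow AML 3 (-1.50, adjusted p = 0.00678). Tsc22d3 and Fkbp5 were chosen after their values were seen. Of 19 circadian clock genes 16 rose in marrow, where 20.4% of all genes did, and 1 rose in lung. The difference was higher in marrow at 6 (31.6% called, beside 30.7% of all genes), among them Nr1d1, a repressor of the clock (1.78 ± 0.27), and Nfil3 (1.84 ± 0.38).

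Ribosomal protein genes all differed in one direction by estimate, 18 of 38 lower and 0 higher by the test (47.4% called), with a median difference of -1.09. Rpl4 fell in marrow from 1576, 1679 and 1329.7 CPM to 916, 739 and 740.5 and stood at 269.8, 296 and 275 in lung controls and 448, 376 and 405 in lung AML, a difference of -1.48 ± 0.22. The lung rise did not pass (adjusted p = 0.099). Oxidative phosphorylation genes were lower at 12 of 36 (33.3% called, beside 30.7% of all genes), with Uqcrfs1, a subunit of respiratory complex III, at -1.75 ± 0.24. With library totals alone 6 ribosomal and 4 oxidative phosphorylation genes were called lower, and the medians of both lists kept their sign under each scaling tried. Without marrow control 2, lung control 3, lung AML 2 or lung AML 3 the ribosomal count was 10, 11, 9 or 11, and without lung AML 2 the oxidative phosphorylation count was 6.

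Markers of blood cells gave mixed results. Of 18 pan-leukocyte genes 9 were higher and 2 lower (61.1% called, against 30.7% of all genes). Arhgdib stood at 4.45 ± 0.48 and Ikzf1, a lymphoid transcription factor, at -3.48 ± 0.67. Ptprc, the defining leukocyte surface protein CD45, stood at 7.86, 5.23 and 2.52 CPM in marrow controls, 0.129, 5 and 0.174 in marrow AML, 46.6, 27.0 and 42.6 in lung controls and 24.1, 22.2 and 27.1 in lung AML. Its difference was -0.86 ± 1.30 (adjusted p = 0.663), and without marrow AML 2 it was -4.35 (adjusted p = 0.00168). Of 15 myeloid progenitor genes 2 were higher and 1 lower (20% called), and the lower count was 5 without marrow AML 3, 3 without marrow control 2 and 2 without marrow control 3 or marrow AML 2. Trp53, the gene mutated in the transplanted cells, differed by -0.30 ± 0.26 (adjusted p = 0.421) and overlapped between AML and control in both tissues.

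For lung epithelial markers the counts were low. Of 15 alveolar type 2 genes 0 were higher and 2 lower (13.3% called), Lpcat1 and Abca3, with 4 lower without marrow AML 3, and of 12 airway genes 1 was higher. Of 13 alveolar type 1 genes 4 were higher, among them Hopx (4.13 ± 0.40) and Cav1, the main protein of caveolae and also abundant in endothelium (6.19 ± 0.89). Of 16 monocyte and macrophage genes 1 was higher and 0 lower (6.25% called). Over all genes 30.7% were called.

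**Figure D5:**
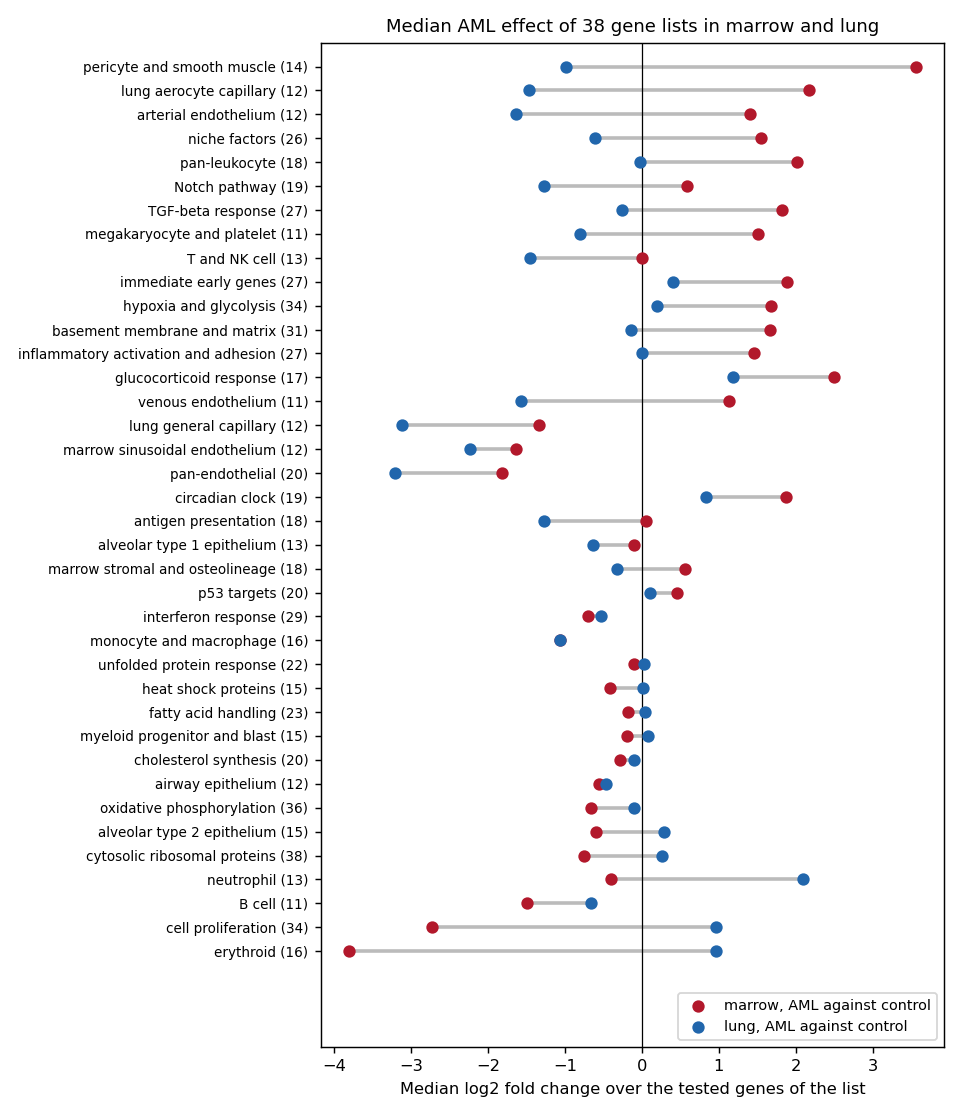
Median AML effect in marrow (red) and in lung (blue) on the log2 scale (x axis) for each of the 38 gene lists (y axis, genes tested in parentheses), in the order of the median difference. Pericyte genes stand at one end (medians of 3.56 in marrow and -0.98 in lung) and erythroid genes at the other (-3.80 and 0.96).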

How the data were processed

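In all 12 libraries, RNA from marrow and lung was sequenced, 3 libraries in each of 4 groups. Per the labels' protocols, total RNA came from a micro-scale column kit and was amplified with the low-input kits SMART-seq v4 and ThruPLEX. The authors deposited 1 raw count per gene symbol and library, not normalised. Per the submitters' processing notes, bcl2fastq, STAR and the mm10 build were used, with no version, annotation or counter given in the sources used here. The names of the deposited files mark the counting as unstranded, so overlapping and antisense genes, and near-identical copies, cannot be told apart.

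The analysis used edgeR 4.0.16 under R 4.3.3. The function filterByExpr, given the groups, a minimum count of 10 and a minimum total of 15, passed 18147 of 55291 genes. TMM factors lay from 0.865 to 1.25 and followed the groups. They were 1.21, 1.25 and 1.16 in marrow AML and 0.925, 0.865 and 0.916 in lung AML. Marrow controls lay from 0.93 to 0.987 and lung controls from 0.947 to 0.958. The difference of AML effects was a contrast of 4 group means in the quasi-likelihood F test with robust dispersions on all 12 libraries (8 residual degrees of freedom), adjusted over all genes by Benjamini-Hochberg and called under 0.05. CPM are counts relative to library size scaled by TMM, and log2 values are fitted, with their standard error. The fit was tested on simulated data. DESeq2 1.42.0, limma 3.58.1, other scalings and filters and leaving out each library were alternatives. Gene positions come from GENCODE M21 (GRCm38), where 53292 of the 55291 symbols were found, and promoter sequences from RefSeq (GRCm38.p6).

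The members, the 38 gene lists and the tests were chosen with earlier results of these data known. Named genes come from 4522 called ones that reached a group mean of 10 CPM in the highest group and 10 counts summed in each group, passing over predicted genes, clones, pseudogenes and immune receptor segments. The rule took the 6 with the smallest p in each direction, 4 per direction with opposite effects, 2 for each kind of same-sign effect, 3 per direction with a lung effect alone and up to 3 per list, plus Cdh5, Pecam1, Ptprc and Trp53, and some list members it took are not reported here. Other named genes were chosen after their values were seen: Dll4, Ccnb1, Ermap, Rgs5, Tsc22d3, Fkbp5, the globin genes and Alas2.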

Additional observations from a re-analysis of the deposited data

Results flagged for a closer look

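The contrast tests whether the same comparison, AML against control, gave different effects in 2 tissues, so each result here is one in which the interaction test itself passed. AML effects differed between the tissues at 2642 genes with the higher effect in marrow and at 2925 with the lower effect in marrow. Of these, 89 rose in marrow and fell in lung and 58 fell in marrow and rose in lung, each tissue's own effect being called. The differences were 4.72 for Plekha2, 3.74 for Ddah2, 3.45 for Sh3bgrl3 and 3.85 for Maoa on the log2 scale. They were -2.88 for Tfdp2, -3.95 for Mcm7, -3.22 for Gypc and -2.33 for Eci2. The other genes named as called in the difference meet the same criterion. No group had more than 3 libraries, so single libraries were not tested for standing apart from their group.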

How the results depend on the processing

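Of the 135 genes followed here, none with a call changed sign under the alternatives run. Uncalled genes did: Cdh5 was at -0.14 without lung control 2, Dll4 ranged from -0.82 to 1.1 and Hba-a2 from -2.45 to 0.58 when 1 library was left out, and Trp53 was at 0.1 with library totals. In addition, the counts of calls higher and lower in marrow stayed within 1.5 times under every alternative except 2. With library totals alone the lower calls were 1756, the higher calls were 3494 and 66.6% of calls were higher, against 47.5% with TMM factors. Against a 1.5-fold change the lower calls were 1944. DESeq2's Wald test called 3287 higher and 3334 lower, and of the 5567 calls 5513 were shared. The counts of genes up in marrow and down in lung were 304 with DESeq2's Wald test, 275 with limma-voom, 22 against 1.5-fold and 154 with tissue effects fitted from 6 libraries each, an alternative added after seeing the data. For genes down in marrow and up in lung they were 233, 180, 10 and 97 in the same order and 35 with library totals. Of the 89 and 58 genes, 87 and 58 were shared with DESeq2, 65 and 38 with limma-voom. Leaving out each library gave 1927 to 2996 higher calls, 2016 to 3421 lower calls, 10 to 136 genes up in marrow and down in lung and 15 to 98 the other way, and the cause was not tested. Of 1620 gene values so obtained, 70 lost the call and 6 gained one. Medians of the airway, cholesterol, fatty acid, heat shock, unfolded protein response and myeloid progenitor lists changed sign with library totals. Correlations of deviations from group means lay from -0.162 to 0.183 between libraries of the same number and from -0.222 to 0.267 otherwise. With 3 libraries per group they cannot tell whether libraries of the same number share a mouse. With a replicate block over all groups 2278 genes were called higher and 2646 lower, and with a block within each condition 1930 and 2231. Libraries of 12.8 to 39.2 M counts leave genes with few counts in a group, 448 of the called ones, with imprecise differences.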

Other observations

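Gene groups with both directions of difference were the following. Of 20 p53 target genes 5 had a higher AML effect in marrow and 3 a lower one (40% called, against 30.7% of all genes), the lower count being 5 without marrow AML 1, with Perp, an adhesion protein of epithelial junctions, at 4.41 ± 0.57, Fas, a death receptor, at 4.20 ± 0.50 and Phlda3, an inhibitor of Akt, at 3.57 ± 0.38 (log2 ± SE). Perp stood at 4.1, 1.61 and 3.35 CPM in marrow controls, 87.6, 55.7 and 140 in marrow AML and 36.8 to 79.1 across the lung libraries, so marrow controls alone were low. Of 23 fatty acid genes 6 were higher and 5 lower (47.8% called), with 3 higher without lung AML 1 or 3 and 8 lower without marrow AML 3. Pparg, a lipid-sensing nuclear receptor, differed by 2.59 ± 0.56 and Acadl, an enzyme of mitochondrial fatty acid oxidation, by -1.42 ± 0.22. Of 20 cholesterol synthesis genes 1 was higher and 4 lower (25% called), with Dhcr7, the last enzyme of the pathway, at 1.91 ± 0.33. The higher count was 4 without marrow AML 1, and the lower count was 2 without lung control 1 or lung AML 2. Unfolded protein response genes counted 3 higher and 4 lower of 22 (31.8%), and heat shock genes 2 and 2 of 15 (26.7%). These small counts rested on single libraries: 1 unfolded protein response gene was higher without marrow control 2 or 3, lung control 1 or 3, or lung AML 1 or 3, and 2 were lower without marrow control 3 or lung AML 2, while 0 or 1 heat shock gene was lower in 11 of the 12 fits that leave out 1 library.

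Vessel subtype lists other than the arterial one counted 6 higher of 11 for venous genes, 7 of 12 for lung aerocyte genes, 5 of 12 for general capillary genes and 3 of 12 for marrow sinusoidal genes, where 1 was lower. The called shares were 54.5%, 58.3%, 41.7% and 33.3% in that order, beside 30.7% of all genes. Median marrow effects were 1.13 for venous, 2.17 for aerocyte, -1.33 for general capillary and -1.63 for sinusoidal genes. Median lung effects in that order were -1.57, -1.47, -3.11 and -2.23. General capillary genes counted 2 without lung AML 3 and 3 without lung AML 1 or lung control 2, and the lower sinusoidal gene was lost in 7 of the 12 fits. Prss23, a serine protease of veins, went from 15.1, 9.3 and 11.6 CPM to 119.7, 82.2 and 239 in marrow and from 107, 124 and 61.0 to 23.8, 18.3 and 13.1 in lung, a difference of 6.01 ± 0.60. Plvap, which forms the diaphragms of fenestrated capillaries, stood at 1142, 4015 and 1535 CPM in lung controls and 51.1, 235 and 85.2 in lung AML, with a difference of 3.0 ± 0.82 (edgeR adjusted p = 0.0179) that missed the threshold without lung AML 3 (2.80, adjusted p = 0.0501), with limma-voom (3.14, adjusted p = 0.0632) and with no filter (3.04, adjusted p = 0.0551). The summed pan-endothelial share was lower in lung AML too, and its part in these values was not tested. Of 13 neutrophil genes 1 was higher and 4 lower (38.5% called), with 1 lower without marrow control 1 and 2 lower without lung control 2 or 3, and the differences ranged from -12.66 to 3.45. Ngp, a neutrophil granule protein, varied widely within groups, at 34.7, 0.553 and 0.18 CPM in the 3 marrow controls and 69.8, 34.9 and 7.7 in lung AML. For B cell genes 1 was higher and 3 lower of 11, for T and NK cell genes 2 were higher of 13, for megakaryocyte genes 1 of 11, and for stromal genes 4 were higher and 1 lower of 18. The called shares of these lists were 36.4%, 15.4%, 9.09% and 27.8% in that order, beside 30.7% of all genes. Without marrow AML 1 or 2 the megakaryocyte count was 3, without marrow AML 1 the lower stromal count was 3, and in 10 of the 12 fits 1 T and NK cell gene was higher.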
